A study of Mus musculus with 8 samples.

Results

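The genes described here are 10 genes of muscle wasting, taken by symbol from the 32849 symbols of the count table. They comprise the pair formed by the receptor gene Tnfrsf12a and the ligand gene Tnfsf12, the ubiquitin ligase genes Fbxo32, Trim63, Fbxo30 and Fbxo31, the transcription factor genes Foxo1 and Foxo3, the growth inhibitor gene Mstn, and Murc, which the table lists under its current symbol Cavin4. The libraries come from frozen esophagus tissue of healthy mice, 4 of MGL KO animals and 4 of WT. The part of the organ taken for RNA is not stated. MGL KO mice carry a global deletion of Mgll, the gene for monoacylglycerol lipase, the enzyme that breaks down the endocannabinoid 2-arachidonoylglycerol, and were bred in-house with WT littermates. Neither group received an agent. The methods give the mice of the study in general as young adults of both sexes, and the strain of the MGL KO line and the sex and age behind each library are not given in the sources used here. Tnfrsf12a was chosen by its measured fold change and false discovery rate in these same libraries, on which the study lists it, and the other genes were added for their function with results of the comparison known. Differences between MGL KO and WT esophagi in the 10 genes are therefore given as a description, without a p-value for any of them, and counts of those past a threshold stand only beside the share of all genes.

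Tnfrsf12a encodes Fn14, a small membrane receptor, and Tnfsf12 encodes its ligand TWEAK, a cytokine of the tumor necrosis factor family. Fn14 is scarce in resting muscle and is induced by injury or loss of nerve supply, and its binding of TWEAK recruits TRAF adapter proteins and activates NF-κB. FOXO transcription factors are kept out of the nucleus by AKT kinase downstream of insulin-like growth factor, and when released they switch on the ligase genes Fbxo32, for atrogin-1, and Trim63, for MuRF1, which mark muscle proteins for the proteasome. Myostatin, from Mstn, limits muscle mass through activin receptors and SMAD proteins. The outer coat of the mouse esophagus is largely striated muscle, so that RNA of tissue that includes it holds skeletal muscle transcripts beside those of the squamous epithelium.

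The libraries held between 13479069 and 17090152 counts. All 10 genes passed the filter on low counts that left 14864 genes, with at least 40 counts of each in every library. Mgll itself was at 13.7 ± 1.54 normalized CPM (counts scaled to a common library total with TMM factors) in MGL KO and 81.2 ± 9.97 in WT esophagi (SD, n = 4). Skeletal muscle was present in every library, with Acta1, the skeletal actin gene, between 14494 and 35569 normalized CPM. The summed level of 18 fiber markers ranged from 50792 to 116290 normalized CPM in MGL KO and from 65422 to 100049 in WT libraries, the highest being MGL KO replicate 2 and the lowest MGL KO replicate 4. In MGL KO replicate 2 the summed markers of differentiated squamous epithelium were also lowest, at 2211 normalized CPM against 3148 to 15970 in WT. MGL KO replicate 4 held Foxj1, the regulator gene of airway cilia, at 227.7 normalized CPM, where the other MGL KO libraries reached at most 1.65 and the WT libraries 0.63. The 12 airway cilia markers summed to between 816.0 and 1512 normalized CPM in MGL KO and between 419.6 and 735.0 in WT libraries, but this separation was that of Tppp3 alone (768.0 to 885.6 in MGL KO, 405.3 to 712.3 in WT). Without Tppp3 the other 11 markers summed to 744.5 normalized CPM in MGL KO replicate 4, to 24.0 or less in MGL KO replicates 1, 2 and 3, and to between 14.3 and 22.7 in WT libraries. Of the macrophage, fibroblast and endothelial markers, 6 of 6, 7 of 7 and 6 of 6 had a log2 fold change below 0, with medians of -0.90, -0.31 and -0.24. The summed macrophage markers were highest in WT replicate 1, at 479.1 normalized CPM against 187.9, 157.1 and 277.3 in WT replicates 2 to 4. An unadjusted p under 0.05 was reached by 6 macrophage, 2 fibroblast and 1 endothelial markers (100%, 28.6% and 16.7%, against 4.29% of all genes tested), and 0 passed the threshold on the adjusted p. The part of the macrophage, fibroblast, endothelial and cilia transcripts in the differences given below was not tested. In such bulk RNA, fewer cells of a type and less RNA per cell cannot be told apart.

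The genomic windows before the start of Tnfrsf12a and Trim63 are shown because these were the members whose level per unit of muscle RNA, given further down, kept the groups apart. In GRCm39, Tnfrsf12a occupies positions 23894416 to 23896468 of chromosome 17 (reverse strand), and Trim63 positions 134042393 to 134056948 of chromosome 4 (forward strand). Each sequence is the 250 bases upstream of the canonical GENCODE transcript on the gene's own strand, chr17:23896464-23896713 (reverse) and chr4:134042143-134042392 (forward), with capitals for letters that match a searched motif.
Tnfrsf12a: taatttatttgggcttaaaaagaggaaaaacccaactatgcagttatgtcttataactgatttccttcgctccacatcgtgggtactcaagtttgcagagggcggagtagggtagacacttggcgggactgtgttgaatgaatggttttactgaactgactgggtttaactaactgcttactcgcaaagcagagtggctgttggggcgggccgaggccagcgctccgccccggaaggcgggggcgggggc
Trim63: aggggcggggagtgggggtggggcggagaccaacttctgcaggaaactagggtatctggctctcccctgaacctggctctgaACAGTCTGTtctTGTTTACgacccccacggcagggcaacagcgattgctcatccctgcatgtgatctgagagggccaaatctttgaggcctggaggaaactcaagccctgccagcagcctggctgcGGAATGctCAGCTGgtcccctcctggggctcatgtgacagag
In the Trim63 window, the first run of capitals, ACAGTCTGT, matches the core of a glucocorticoid response element (ACANNNTGT) and starts 168 bases before the transcript. It is followed after 3 bases by TGTTTAC, a FOXO motif (GTAAACA on the other strand), which starts 156 bases before the transcript. The remaining capitals are GGAATG, the TEAD motif, and CAGCTG, an E-box of the kind bound by myogenic factors. On either strand, the FOXO motif occurred in 2.72% of 21729 upstream windows of protein-coding genes, the glucocorticoid core in 5.22%, the TEAD motif in 12.1% and CAGCTG in 11.8%. Among the windows of the 10 genes, the FOXO motif and the glucocorticoid core were found in that of Trim63. The Tnfrsf12a window held none of these, nor the AP-1 motif (TGANTCA, 6.18% of windows), the CREB motif (TGACGTCA, 1.69%), nor an NF-κB, CArG box or MEF2 motif, which were found in 7.62%, 1.40% and 2.79% of windows. No motif overlapped another in these windows, and a match is a description of letters, not evidence of binding.

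Of the 10 genes, 0 had an adjusted p under 0.05 in edgeR's quasi-likelihood test, which called 0.0471% of all genes tested. An unadjusted p under 0.05 was reached by 4 of the 10, all higher in MGL KO, against 8.65% of all genes in either direction. edgeR's exact test, DESeq2 and limma-voom with sample quality weights each called 1 of the 10, Tnfrsf12a, which was chosen on such a call in these libraries, where they called 0.431%, 0.935% and 0.168% of the genes with an adjusted p. In 3 genes, Tnfrsf12a, Fbxo30 and Foxo1, the groups did not overlap and MGL KO was higher, where 6.02% of all genes tested had groups that did not overlap and 2.72% were of this direction. The log2 fold change, MGL KO minus WT, was above 0 in 8 of the 10 genes with a median of 0.33, whereas 53.0% of all genes were above 0 with a median of 0.02. Since these genes were chosen with the comparison known, nothing is read from these counts.

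**Figure D1:**
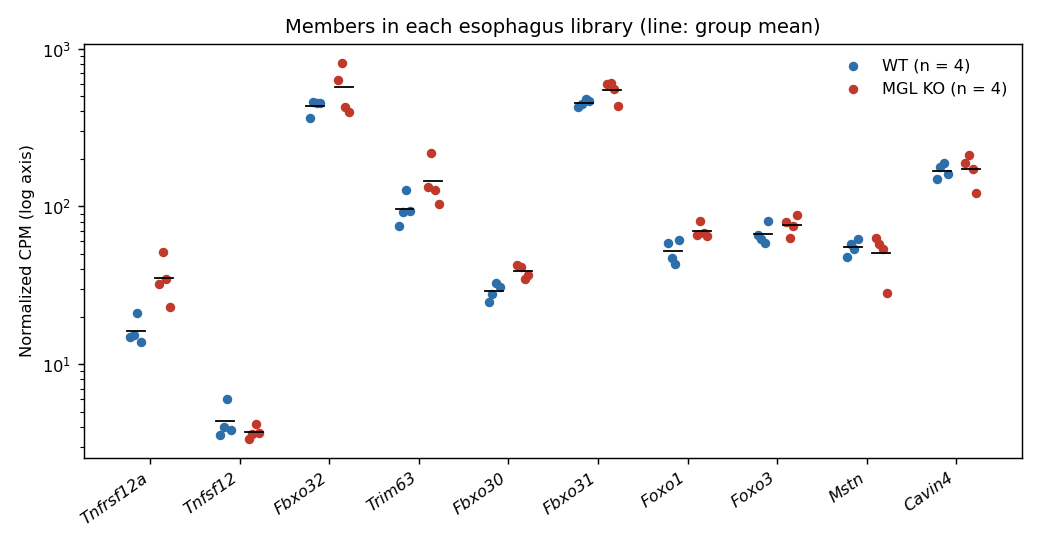
Normalized CPM (log axis) of the 10 genes in each library, with 4 WT libraries in blue and 4 MGL KO libraries in red, and a line at each group mean. Tnfrsf12a, Fbxo30 and Foxo1 show no overlap between the groups. On the log axis, Tnfrsf12a has the widest gap between the means (16.2 in WT and 35.4 in MGL KO).

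Tnfrsf12a showed the largest difference of the 10 genes. Its expression was 32.3, 51.3, 34.6 and 23.2 normalized CPM in MGL KO replicates 1 to 4. In WT replicates 1 to 4 it was 14.9, 15.3, 21.0 and 13.8 normalized CPM. The lowest MGL KO library, replicate 4, was thus above the highest WT library, replicate 3. The group means were 35.4 ± 11.8 normalized CPM (SD, n = 4) in MGL KO and 16.2 ± 3.21 (SD, n = 4) in WT esophagi, and the log2 fold change was 1.12 (standard error, SE, 0.24). Leaving out single libraries gave values from 0.89, without MGL KO replicate 2, to 1.28, without MGL KO replicate 4, the library with airway cilia transcripts. The locus of Tnfrsf12a overlaps that of Hcfc1r1 on the other strand, and the use of strand in counting is not given in the sources used here. Hcfc1r1, at 67.0 ± 25.1 normalized CPM in MGL KO and 58.0 ± 16.9 in WT esophagi (SD, n = 4), differed by a log2 fold change of 0.21 (SE 0.28), and its groups overlapped. This value was -0.06 without MGL KO replicate 2 and 0.44 without WT replicate 3.

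The ligand gene did not follow its receptor. Tnfsf12 was at 3.37, 3.61, 4.19 and 3.65 normalized CPM in MGL KO replicates 1 to 4 and at 3.57, 4.00, 6.05 and 3.85 in WT replicates 1 to 4. The groups overlapped, and WT replicate 3 lay above all other libraries. The log2 fold change of -0.23 (SE 0.24) shrank to -0.03 without that library. Tnfsf12 was the least expressed of the 10 genes, with 40 to 92 counts per library, and its locus on chromosome 11 (69577076 to 69586928, reverse strand) is shared with Tnfsfm13, a read-through gene with Tnfsf13, so that reads of the pair may have been assigned elsewhere. Per kb of canonical transcript, the receptor stood at 10.6 to 23.8 times the level of its ligand in the MGL KO libraries and at 5.81 to 6.99 times in the WT libraries.

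Trim63 followed Tnfrsf12a most closely among the other members. Its level was 132.9, 218.5, 127.4 and 103.4 normalized CPM in MGL KO replicates 1 to 4 and 74.9, 91.9, 126.4 and 93.7 in WT replicates 1 to 4. In 3 of the 4 MGL KO libraries it exceeded every WT library, and MGL KO replicate 4 lay below WT replicate 3. The means of 145.5 ± 50.3 in MGL KO and 96.7 ± 21.5 normalized CPM in WT (SD, n = 4) gave a log2 fold change of 0.59 (SE 0.24), which was 0.33 without MGL KO replicate 2.

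Fbxo32, whose product atrogin-1 is the substrate-recognition part of an SCF ubiquitin ligase, exceeded the WT range in 2 of the 4 MGL KO libraries. It was at 628.4, 812.4, 426.9 and 398.3 normalized CPM in MGL KO replicates 1 to 4 and at 361.5, 456.0, 450.1 and 451.7 in WT replicates 1 to 4. MGL KO replicates 1 and 2 stood above all WT libraries, whereas replicates 3 and 4 lay within the WT range. The log2 fold change of 0.40 (SE 0.23) was 0.18 without MGL KO replicate 2. Among the MGL KO libraries the other F-box genes varied less than Fbxo32, with coefficients of variation of 9.39% for Fbxo30 and 14.8% for Fbxo31 against 34.1%, and among the WT libraries these were 11.7%, 5.24% and 10.6%. Fbxo30, for the ligase MUSA1, whose expression BMP signaling restrains in muscle, was at 42.4, 41.2, 34.8 and 36.6 normalized CPM in MGL KO replicates 1 to 4. WT replicates 1 to 4 held it at 24.9, 28.0, 32.6 and 31.0 normalized CPM, all below the MGL KO libraries, and its log2 fold change of 0.41 (SE 0.12) ranged from 0.34 to 0.48 with 1 library left out. Fbxo31, an F-box gene expressed well beyond muscle, ranged from 429.9 to 603.5 normalized CPM in MGL KO and from 424.6 to 479.0 in WT libraries, with a log2 fold change of 0.27 (SE 0.14). In MGL KO replicates 1, 2 and 3 it exceeded all WT libraries, and in replicate 4 it fell within their range.

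Both FOXO genes had higher means in MGL KO esophagi, and the groups were separate for Foxo1. Foxo1 was at 65.6, 80.2, 68.3 and 64.8 normalized CPM in MGL KO replicates 1 to 4 and at 58.2, 47.2, 42.9 and 60.9 in WT replicates 1 to 4. The gap between the groups was narrow, from 60.9 in WT replicate 4 to 64.8 in MGL KO replicate 4, and the log2 fold change was 0.41 (SE 0.13). Foxo3 ranged from 62.9 to 87.7 normalized CPM in MGL KO and from 58.6 to 80.8 in WT libraries, and its log2 fold change of 0.19 (SE 0.14) was 0.12 without MGL KO replicate 4 and 0.30 without WT replicate 4. MGL KO replicate 2, which had the most Foxo1, had the least Foxo3 of its group. Both genes act beyond muscle, and lncRNA genes overlap their loci.

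In Mstn and Cavin4, which are muscle genes too, the groups overlapped. Mstn was at 63.4, 57.9, 53.3 and 28.3 normalized CPM in MGL KO replicates 1 to 4 and at 48.0, 58.1, 53.6 and 61.7 in WT replicates 1 to 4. MGL KO replicate 4, the library with the least muscle RNA, stood below all others. The log2 fold change of Mstn was -0.13 (SE 0.22), and it was 0.07 without that library. Cavin4 encodes a caveolar coat protein of muscle cells. Its level of 173.8 ± 38.0 normalized CPM in MGL KO and 168.7 ± 17.4 in WT esophagi (SD, n = 4) gave a log2 fold change of 0.04 (SE 0.17), which turned to -0.06 without MGL KO replicate 2, -0.01 without WT replicate 1 and -0.02 with library size alone.

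**Figure D2:**
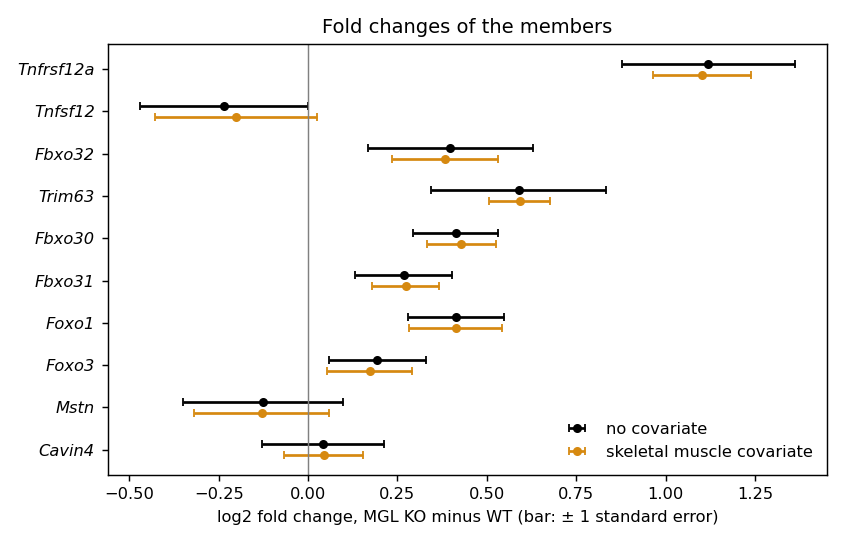
Log2 fold change, MGL KO minus WT, of each gene with ± 1 standard error, from the fit without a covariate (black) and with the mean log2 CPM of the fiber markers as a covariate (orange). The covariate leaves the value of Tnfrsf12a near 1.1 and narrows its standard error from 0.24 to 0.14.

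Levels of different genes were compared per kb of canonical transcript. In WT esophagi, Fbxo31 was highest with 102.6 ± 5.37 normalized CPM per kb (SD, n = 4), followed by Trim63 (66.9 ± 14.9), Cavin4 (64.7 ± 6.67) and Fbxo32 (58.2 ± 6.18), of which each neighbouring pair after Fbxo31 overlapped. Mstn (20.5 ± 2.19) and Tnfrsf12a (16.1 ± 3.19) formed the next overlapping pair. Foxo3 (9.75 ± 1.42) lay below them, then Foxo1 (6.04 ± 0.99) and Fbxo30 (5.42 ± 0.64), which overlapped, and Tnfsf12 was lowest at 2.59 ± 0.67. In MGL KO esophagi the order by means was alike except that Tnfrsf12a, at 35.1 ± 11.7 normalized CPM per kb, stood above Mstn at 18.8 ± 5.74, and Fbxo32 above Cavin4, and both of these pairs overlapped.

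The spread of some of the genes between libraries of a group went along with the amount of muscle RNA. MGL KO replicate 2, with the most muscle RNA, was the highest of its group in 6 of the 10 genes, and MGL KO replicate 4, with the least, was the lowest in 7. The level of each gene was therefore also expressed per 10000 CPM of the 18 fiber markers of the same library. Acta1, Myh1 and Tnnt3 were the highest of these markers. Myh4, a fast myosin heavy chain gene named after its values were seen, was at 1055 ± 678.9 in MGL KO and 2661 ± 725.0 normalized CPM in WT esophagi (SD, n = 4; log2 fold change -1.33, SE 0.41, adjusted p = 0.485). On this scale Tnfrsf12a was 4.05, 4.42, 4.39 and 4.56 in MGL KO replicates 1 to 4 and 2.28, 1.96, 2.10 and 1.72 in WT replicates 1 to 4. The coefficient of variation of Tnfrsf12a among the MGL KO libraries was 33.2% in normalized CPM and 4.93% per muscle RNA, and among the WT libraries 19.8% and 11.6%. Among the MGL KO libraries the coefficient was lower per muscle RNA for 5 genes (Tnfrsf12a, Trim63, Fbxo32, Mstn and Cavin4) and higher for the other 5, from 9.39% to 35.1% for Tnfsf12, 9.39% to 30.6% for Fbxo30, 14.8% to 19.5% for Fbxo31, 10.3% to 27.7% for Foxo1 and 13.5% to 46.7% for Foxo3. Among the WT libraries it was lower for 5 genes and higher for 5. Trim63 was 16.7, 18.8, 16.2 and 20.3 per 10000 CPM of fiber markers in MGL KO replicates 1 to 4 and 11.5, 11.8, 12.6 and 11.7 in WT replicates 1 to 4, so that its groups, which overlapped in normalized CPM, were separate. MGL KO replicate 4, which carried airway cilia transcripts, was the highest library for both genes on this scale.

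**Figure D3:**
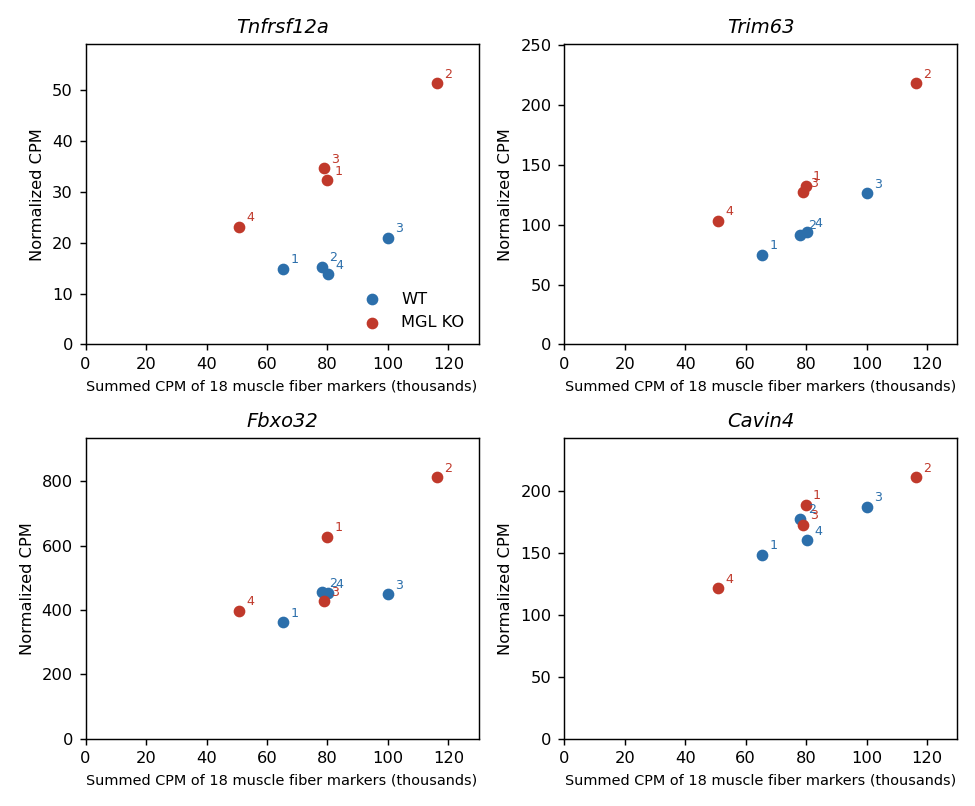
Normalized CPM of Tnfrsf12a, Trim63, Fbxo32 and Cavin4 against the summed normalized CPM of 18 muscle fiber markers, 1 point per library, numbered by replicate, with MGL KO in red and WT in blue. For Tnfrsf12a and Trim63, MGL KO replicates 1 and 3 lie above WT replicates 2 and 4, which have a similar muscle level (Tnfrsf12a 32.3 and 34.6 against 15.3 and 13.8). The Cavin4 points of both groups intermingle. MGL KO replicates 2 (116290) and 4 (50792) lie outside the WT range of the marker sum (65422 to 100049). No WT library of similar muscle level stands beside them.

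The mean log2 difference per muscle RNA was 1.12 for Tnfrsf12a and 0.59 for Trim63, close to their fold changes in normalized CPM. For Fbxo32 it was 0.38, and MGL KO replicate 3 at 54.1 still lay within the WT range of 45.0 to 58.4 per 10000 CPM of fiber markers. Fbxo30 and Foxo1, separate in normalized CPM, overlapped per muscle RNA, with Fbxo30 between 3.55 and 7.20 in MGL KO and 3.26 and 3.86 in WT libraries, and Foxo1 between 6.90 and 12.8 in MGL KO and 4.29 and 8.90 in WT libraries. Their mean log2 differences per muscle RNA were nevertheless 0.45 for Fbxo30 and 0.46 for Foxo1. With the fiber markers as a covariate, the log2 fold changes were 0.43 (SE 0.10) for Fbxo30 and 0.41 (SE 0.13) for Foxo1. The difference for Cavin4 was 0.06 and that for Mstn -0.15. With 1 library left out, they ranged from 0.001 to 0.14 for Cavin4 and from -0.27 to -0.04 for Mstn. Acta1 and Ckm alone as the denominator gave 0.95 for Tnfrsf12a, 0.42 for Trim63, 0.21 for Fbxo32, -0.11 for Cavin4 and -0.32 for Mstn. In the fit with the fiber markers as a covariate, the standard error of Trim63 fell from 0.24 to 0.09 at a log2 fold change of 0.59, and 1 of the 10 genes, Tnfrsf12a, had an adjusted p under 0.05, where this fit called 0.148% of all genes tested.

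The genes whose log2 CPM over the 8 libraries, centred on their mean, lay closest to Tnfrsf12a were Dysf, Myod1, Chrna9, Spsb4 and Cdkn1a, with root mean square distances of 0.19, 0.20, 0.22, 0.22 and 0.23, where the median over 14863 genes was 0.70. Dysf encodes the membrane repair protein dysferlin, Myod1 a transcription factor that commits cells to muscle, Chrna9 an acetylcholine receptor subunit, and Cdkn1a the cell cycle inhibitor p21. Dysf and Cdkn1a are also in the list of differing genes that the study drew from these libraries. Myod1 ranged from 24.5 in MGL KO replicate 4 to 45.4 normalized CPM in MGL KO replicate 2, with WT libraries between 11.7 and 18.9. Trim63 ranked 19 by this distance (0.29), Fbxo32 318, Fbxo30 361 and Tnfsf12 7788. These ranks are a description that includes the difference between the groups.

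Genes around the 10 members were taken from 8 lists, with 153 of 155 genes tested, and the median log2 fold change over them was 0.08. Of these, 0 had an adjusted p under 0.05 in edgeR's quasi-likelihood test. An unadjusted p under 0.05 was reached by 19 higher and 6 lower genes (12.4% and 3.92%, against 4.35% and 4.29% of all genes tested). The exact test and DESeq2 each called 3 of them, Myh3, Myod1 and Nfkbia, and limma-voom called 1, Myh3. Over all genes with an adjusted p, these methods called 0.431%, 0.935% and 0.168%. The groups did not overlap in 10 of the 153 genes higher and 3 lower in MGL KO (6.54% and 1.96%, against 2.72% and 3.30% of all genes tested).

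The list of TWEAK-Fn14 signaling holds genes of the chain below Fn14 and also Cd163. Of its 20 genes, 0 passed the threshold and 13 were higher, with a median log2 fold change of 0.03. Nfkbia, the gene for the NF-κB inhibitor IκBα and itself a target of NF-κB, lay between 85.1 and 90.0 normalized CPM in MGL KO and between 54.2 and 70.5 in WT libraries, a log2 fold change of 0.54 (SE 0.10, adjusted p = 0.222). Traf5, for an adapter protein of TNF receptors, lay between 10.8 and 16.1 in MGL KO and between 16.2 and 19.7 normalized CPM in WT libraries (log2 fold change -0.37, SE 0.15, adjusted p = 0.559). The adapter genes Traf2 and Traf3, named after their values were seen, went the other way without overlap of the groups, with log2 fold changes of 0.27 (SE 0.10, adjusted p = 0.523) and 0.24 (SE 0.10, adjusted p = 0.559). Birc3 and Nfkb2, a target and a subunit of the NF-κB pathway chosen after their values were seen, had log2 fold changes of 0.04 and 0.01. Cd163, the gene of a macrophage receptor that takes up TWEAK and also named after its values were seen, was at 29.9 ± 10.2 in MGL KO and 43.0 ± 19.9 normalized CPM in WT esophagi (SD, n = 4), a log2 fold change of -0.52 (SE 0.36, adjusted p = 0.696). The 6 macrophage markers, all with an unadjusted p under 0.05 and lower in MGL KO, summed to between 132.0 and 166.4 normalized CPM in MGL KO and between 157.1 and 479.1 in WT libraries, and their part in the value of Cd163 was not tested.

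Of 20 ubiquitin ligase genes other than the members 0 passed, 12 were higher, and the median log2 fold change was 0.07. Mdm2, the ligase gene of p53, was at 83.2 ± 8.25 normalized CPM in MGL KO and 67.9 ± 3.99 in WT esophagi (SD, n = 4), with a log2 fold change of 0.29 (SE 0.10, adjusted p = 0.503). The list of FOXO targets of the atrophy program includes autophagy and proteasome genes, and also the FOXO factor genes Foxo4 and Foxo6. Of its 26 genes, 0 passed, 20 were higher, the median log2 fold change was 0.15, and in 0 genes the groups were separate. Of 22 genes of the myostatin and activin pathway 0 passed and 13 were higher, with a median log2 fold change of 0.12, and in 0 genes the groups were separate.

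Of 24 genes of the IGF1, insulin and AKT pathway 0 passed and 15 were higher, with a median log2 fold change of 0.03. Pdpk1, for the kinase that activates AKT, was at 64.6 ± 1.92 in MGL KO and 56.0 ± 4.31 normalized CPM in WT esophagi (SD, n = 4; log2 fold change 0.21, SE 0.08, adjusted p = 0.559). Igfbp5, for a binding protein of insulin-like growth factors, was at 1858 ± 203.2 in MGL KO and 2346 ± 114.8 normalized CPM in WT esophagi (SD, n = 4; log2 fold change -0.34, SE 0.14, adjusted p = 0.552). Of the 9 cavins, caveolins and their partners, 9 were higher and 0 passed, with a median log2 fold change of 0.05. Cavin1, the ubiquitous partner of Cavin4, was at 367.4 ± 18.1 in MGL KO and 317.9 ± 23.3 normalized CPM in WT esophagi (SD, n = 4; log2 fold change 0.21, SE 0.10, adjusted p = 0.626).

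The list of the fasting and glucocorticoid response of muscle, to which Fbxo32, Trim63 and Foxo1 also respond, had 15 of 15 tested genes higher in MGL KO esophagi with a median log2 fold change of 0.38, and 0 passed the threshold. An unadjusted p under 0.05 was reached by 6 of them, all higher (40.0%, against 4.35% of all genes tested), in a list chosen with results of these data known. Cebpb, the gene of a transcription factor, lay between 39.6 and 54.8 normalized CPM in MGL KO and between 24.3 and 38.0 in WT libraries (log2 fold change 0.56, SE 0.17, adjusted p = 0.478). Sesn2, a stress-responsive inhibitor of mTOR signaling, lay between 8.33 and 10.7 in MGL KO and between 5.85 and 8.26 normalized CPM in WT libraries (log2 fold change 0.45, SE 0.18, adjusted p = 0.550). Pdk4, a kinase gene of fuel switching named after its values were seen, was at 278.0, 856.9, 789.5 and 427.5 normalized CPM in MGL KO replicates 1 to 4, and at 196.5 to 332.5 in WT libraries. The part of this response in the levels of Fbxo32, Trim63 and Foxo1 was not tested.

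The list of denervated or regenerating muscle held Myh3, the gene with the largest difference in the 8 lists. Of 17 tested genes 9 were higher, 0 passed, and the median log2 fold change was 0.01. Myh3, the embryonic myosin heavy chain, was at 44.7, 61.4, 41.1 and 31.0 normalized CPM in MGL KO replicates 1 to 4 and at 8.48, 6.73, 13.1 and 12.8 in WT replicates 1 to 4. All MGL KO libraries lay above all WT libraries, with a log2 fold change of 2.11 (SE 0.27, adjusted p = 0.0535). Myod1 had a log2 fold change of 1.03 (SE 0.22, adjusted p = 0.306). Myh3, like Tnfrsf12a, is in the study's own list from these libraries, and its direction here is no independent evidence.

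**Figure D4:**
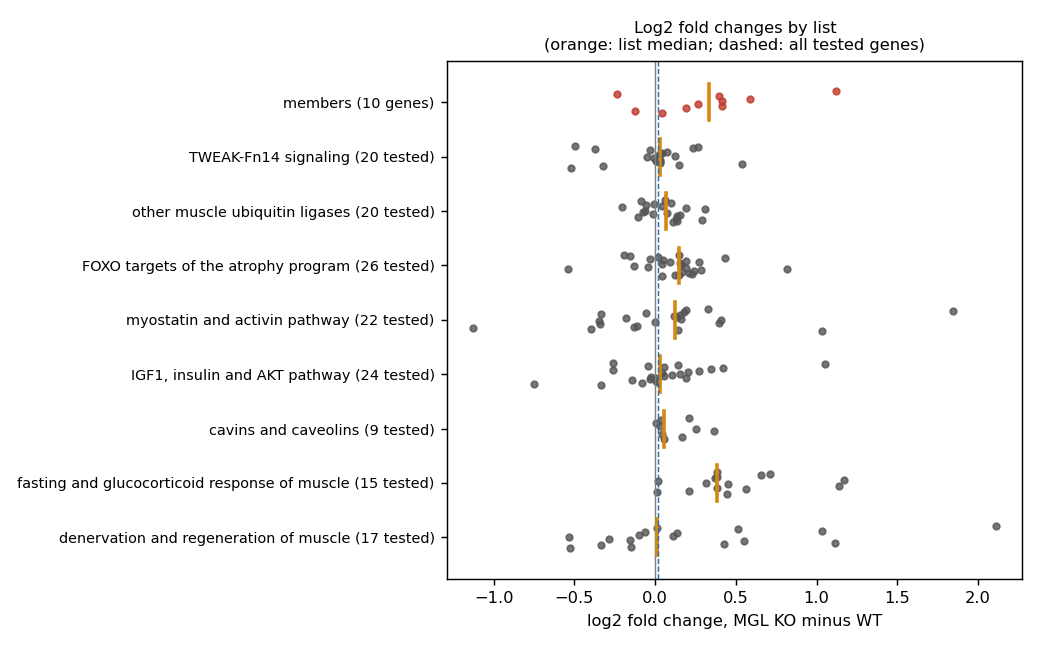
Log2 fold change, MGL KO minus WT, of each tested gene in the members (red) and in 8 lists of related genes (grey), with the list median in orange and the median of all tested genes (0.02) as a dashed line. The fasting and glucocorticoid list has the highest median, 0.38, and Myh3, at 2.11, lies farthest to the right.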

How the data were processed

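Poly(A)-selected RNA of 8 esophagus samples was sequenced. The authors trimmed adapters with Cutadapt after FastQC 0.11.9, aligned reads to GRCm39 with STAR 2.7.10b and deposited raw counts per gene symbol. The annotation, the counting tool and its use of strand are not given in the sources used here. Genes were kept by filterByExpr (minimum count 10), scaled by TMM factors and compared with edgeR 4.0.16 (R 4.3.3) by the quasi-likelihood test, with Benjamini-Hochberg adjustment at 0.05 over 14864 genes. Standard errors were taken as the absolute log2 fold change over the root of the F statistic. Log2 CPM used a prior count of 1. Alternatives were the exact test named in the paper, DESeq2 1.42.0, limma 3.58.1 voom, other scaling and filters, a replicate block, a muscle covariate and each library left out. The members, lists and tests were chosen with earlier results of these data known. Genes named in lists were calls or, failing these, the 2 with the largest change, a mean of at least 1 CPM and separate groups, exceptions being marked. Positions, lengths and upstream sequences are from GENCODE vM39 on GRCm39, and the symbol Murc was matched to Cavin4 through RefSeq synonyms. The quasi-likelihood test, the exact test, DESeq2, limma-voom and the replicate block were also run on simulated counts. These were drawn independently for each gene, without shared differences in muscle content. They do not show how the tests behave with such differences, and the covariate fit was not among them. A count of 3, the limit a count of 0 allows, equals 0.167 to 0.271 normalized CPM, for counting error only. The labels number the samples without naming animals, so p-values measure the spread between these samples. The chi-square per degree of freedom between libraries of a group was 13.6 or more.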

Additional observations from a re-analysis of the deposited data

Results flagged for a closer look

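In 5 of 62 groups of 4 libraries compared, 1 library lay far from the others of its group, where chance gives about 3.1. Fbxo32 was low in WT replicate 1, at 361.5 normalized CPM against at least 450.1 in the other WT libraries. Mstn per muscle RNA was low in WT replicate 3, at 5.36 per 10000 CPM of fiber markers against at least 7.34. The summed markers of basal squamous epithelium were low in WT replicate 3, at 3975 normalized CPM against at least 5499, and the 12 airway cilia markers were high in MGL KO replicate 4, at 1512 against at most 909.6 normalized CPM. This excess lay in the 11 markers other than Tppp3, whose sum, formed after the data were seen, was 744.5 in MGL KO replicate 4 and 24.0 or less in MGL KO replicates 1, 2 and 3. The summed thyroid markers were at 4.80 normalized CPM in WT replicate 1 and at most 0.91 in the other WT libraries.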

How the results depend on the processing

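Of the 10 members 0 passed the threshold, and 1 passed in the exact test, in DESeq2, in limma-voom with quality weights and with the skeletal muscle covariate, each time Tnfrsf12a. The count was 0 in each fit that left out 1 library. Of the 153 related genes 0 passed, with 3 in the exact test and 3 in DESeq2, and 1 each in limma-voom, with library size alone, with a minimum of 10 counts per library and with the muscle covariate, and 0 with each library left out. Over all genes, 7 were called, against 64 in the exact test, 137 in DESeq2, 25 in limma-voom, 22 with the muscle covariate, 2 without a filter 2 with the replicate block, and 2 to 5 when single libraries were omitted, and the cause was not tested. MGL KO was higher in 3 of the 7, against 5 of 6 with library size alone. With the replicate number as a block, 2 genes and 0 members were called. The deviations of same-numbered libraries correlated at -0.14, -0.28, -0.14 and 0.08 across genes. These values cannot show whether same-numbered libraries shared a litter or a batch, which the labels do not give. The sign of the log2 fold change held in all 17 alternatives for Tnfrsf12a, Tnfsf12, Fbxo32, Trim63, Fbxo30, Fbxo31, Foxo1 and Foxo3, in 16 for Mstn and in 14 for Cavin4. Per muscle RNA, Foxo3 turned to -0.05 without MGL KO replicate 4 and Tnfsf12 to 0.03 without MGL KO replicate 2. At 40 to 92 counts per library, Tnfsf12 is the member that depth limits most.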
